A study of Mus musculus with 16 samples.

Results

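The proteasome genes of thymic lymphomas and of normal thymic T cells were followed over 16 arrays, 1 per mouse sample. Members were the genes whose symbol is Psma, Psmb, Psmc, Psmd, Psme, Psmf or Psmg with a number, each represented by its brightest feature with that single gene symbol. There were 47 such genes of 22180 with a feature of their own, and 45 of the 47 exceeded their array's median in 3 or more of the 16 arrays, which put them among the 12932 genes tested. The arrays came from 3 Lck-Dlx5 tumors (mice of 9 months, founder lines 63, 47 and 86), 3 Lck-MyrAkt2 tumors of founder line 72 and 3 of founder line 420 (both 5 months), 4 tumors carrying both transgenes (2 months, called double transgenic here), and normal thymic T cells of 3 wild-type (WT) littermates of Lck-Dlx5 mice (9 months). Both transgenes use the Lck promoter, a driver of expression in thymocytes, and encode either the homeobox factor Dlx5 or a myristylated, constitutively active Akt2 kinase. Of the double transgenic tumors, replicates 1 and 2 carried Dlx5 founder line 47 with Akt2 founder line 420, and replicates 3 and 4 Dlx5 founder line 86 with an Akt2 line that the labels do not name. Lck-Dlx5 and WT mice share 1 age, as do the Lck-MyrAkt2 lines, but in every other comparison genotype and age cannot be told apart. No source used here says whether the WT cells were sorted.

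The proteasome degrades proteins tagged with ubiquitin. Its 20S core is a barrel of outer alpha rings (Psma genes) and inner beta rings (Psmb genes), in which Psmb5, Psmb6 and Psmb7 carry the proteolytic sites, and the 19S cap made of Psmc ATPases and Psmd subunits binds, unfolds and feeds in the substrate. In lymphoid cells and under interferon-gamma, Psmb8, Psmb9 and Psmb10 take the places of Psmb5, Psmb6 and Psmb7 in the immunoproteasome, which shapes the peptides shown on MHC class I, and in cortical thymic epithelium Psmb11 takes the place of Psmb5 and serves the selection of CD8 T cells. Psme1 and Psme2 form the PA28 cap, Psme3 forms a nuclear cap, Psme4 encodes PA200 and Psmf1 the proteasome-binding protein PI31, while Psmg1 to Psmg4 and Psmd5, Psmd9 and Psmd10 are assembly chaperones of the core and of the 19S base.

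Start regions were taken for the 3 genes on which the contrasts below turn, Psmb8, Psmb5 and Psme1, from 250 bases before to 50 bases after the annotated start (RefSeq, GRCm38.p6, written along the gene). Capitals mark the 1 match in each window to any of the first 3 motifs searched. In Psmb8 (chr17:34197945-34198244, plus strand) they mark a GAS-like motif, TTCNNNGAA, the pattern bound by STAT factors, with its first base at position -97 from the start. In Psmb5 (chr14:54617946-54618245, minus strand) they mark an antioxidant response element-like motif, TGACNNNGC, the pattern of NRF factors, with its first base at position -47. In Psme1 (chr14:55578244-55578543, plus strand) they mark an ISRE-like motif, GAAA and GAAA with NN between them, the pattern of interferon response factors, on the opposite strand from base 10 of the transcript.
Psmb8: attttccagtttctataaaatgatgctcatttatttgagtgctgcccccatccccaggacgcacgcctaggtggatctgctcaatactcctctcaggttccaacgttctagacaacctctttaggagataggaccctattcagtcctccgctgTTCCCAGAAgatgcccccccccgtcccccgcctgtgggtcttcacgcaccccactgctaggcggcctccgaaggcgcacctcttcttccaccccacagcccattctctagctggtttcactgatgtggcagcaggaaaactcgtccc
Psmb5: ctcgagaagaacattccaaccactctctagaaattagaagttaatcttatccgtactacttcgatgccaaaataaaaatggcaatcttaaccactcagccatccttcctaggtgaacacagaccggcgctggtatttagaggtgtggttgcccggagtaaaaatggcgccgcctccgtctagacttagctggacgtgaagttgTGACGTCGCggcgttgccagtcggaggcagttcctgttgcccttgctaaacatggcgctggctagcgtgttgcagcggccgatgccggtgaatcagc
Psme1: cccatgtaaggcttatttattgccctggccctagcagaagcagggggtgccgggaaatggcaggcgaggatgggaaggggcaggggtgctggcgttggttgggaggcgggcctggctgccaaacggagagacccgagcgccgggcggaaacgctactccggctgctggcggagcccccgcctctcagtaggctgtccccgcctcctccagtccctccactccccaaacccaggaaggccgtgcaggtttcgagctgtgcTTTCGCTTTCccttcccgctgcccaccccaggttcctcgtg

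Both strands were searched in the start windows of 39 members, and a match describes the letters only. The GAS-like motif lay in 3 of the 39 members (Psmb8, Psmd2 and Psmg1), against 8.3% of all 32851 windows. The antioxidant response element-like motif lay in 6 (Psmb5, Psmb6, Psmc6, Psmd12, Psmd9 and Psme4), against 12.4% of all windows, and the ISRE-like motif in 5 (Psmb3, Psmd4, Psmd9, Psme1 and Psmg4), against 3.44%. A CCAAT box, CCAAT, lay in 14 members, against 37.4% of all windows. Psmb9 and Psmb8 flank Tap1 on chromosome 17, with Tap2 beyond Psmb8, and the start windows of Psmb9 and Tap1 overlap. Psmb5 and Psmb11 are neighbours on chromosome 14, where Psme1 and Psme2 are separated by Emc9.

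The values are log2 expression summaries, on which a difference of 1 is a doubling. Since the probes of different genes differ, the order of 2 genes' levels is not read, and a difference of 2 genes within an array serves only to compare groups. Calls required a limma p, adjusted over all genes tested, below 0.05. Within-group correlations over the 12932 genes tested were 0.992 to 0.993 in WT and 0.909 to 0.980 in tumors. The Dlx5 feature read 11.45 to 12.30 in Lck-Dlx5 tumors, 6.05 to 6.07 in line 72 tumors, 9.87 to 10.69 in line 420 tumors and 11.93 to 12.97 in double transgenic tumors, against 5.70 to 5.82 in WT, so line 72 differs from the other tumors in Dlx5 as well. The Akt2 feature read 9.46 to 9.63 in Lck-Dlx5, 9.91 to 10.04 in line 72, 9.56 to 9.65 in line 420 and 9.58 to 10.11 in double transgenic tumors, against 9.74 to 9.91 in WT. Line 420, labelled with the Akt2 transgene, thus lay below WT, as did Lck-Dlx5, so this feature does not bear out the label of line 420, and whether its probes read the transgene is not given in the sources used here. The T cell markers Cd3e and Cd3g were above the array median on all 16 arrays. Summed over 9 T cell markers, as the log2 of the summed linear values, the level was 14.41 to 14.75 in Lck-Dlx5, 13.88 to 14.04 in line 72, 13.73 to 14.47 in line 420 and 14.52 to 15.14 in double transgenic tumors, against 15.26 to 15.36 in WT. Cd8a was lower by far in line 72 (log2 difference against WT -5.16 ± 0.42, SE, adjusted p = 1.8e-06 from limma).

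Between 17 and 30 of the 45 tested members were called higher in a tumor group than in WT T cells, most of them subunits of the constitutive core and the 19S cap. In Lck-Dlx5 tumors 17 of the 45 tested members were called higher and 1 lower, where 13.7% of all genes tested were called higher and 15.9% lower. In line 72 tumors 30 were called higher and 1 lower, against 20.7% and 15.6% of all genes. In line 420 tumors 25 were called higher and 1 lower, against 15.1% and 15.4%, and in double transgenic tumors 20 were called higher and 1 lower, against 14.9% and 8.93%. The single lower gene was Psmb11 each time. It passed the filter only through the WT arrays and so had to differ, and its call is no result. The median member differed from WT by 0.38, 0.46, 0.41 and 0.36 log2 units in the tumor groups in the order given, and the median of all genes by 0.0046, 0.045, 0.029 and 0.051. When the arrays were set to a common median, the members called higher numbered 17 in Lck-Dlx5, 31 in line 72, 19 in line 420 and 21 in double transgenic tumors. Of all genes, 13.4%, 22.7%, 14.5% and 18.1% were then higher in that order. In double transgenic tumors 6.84% of all genes were lower, so that higher genes made 72.6% of those called (62.5% as deposited).

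The counts rest on few arrays. In Lck-Dlx5 tumors the higher count was 8 without replicate 2, 7 without replicate 3, 7 without WT replicate 1 and 9 without WT replicate 2. In line 72 it was 17 without replicate 2 and 19 without WT replicate 1, and in line 420 it was 14 without replicate 1, 13 without WT replicate 1 and 14 without WT replicate 2. In double transgenic tumors it was 12 without replicate 2, 8 without WT replicate 1, 8 without WT replicate 2 and 12 without WT replicate 3. Replicates 1 and 2 of the double transgenic group and replicate 3 of line 420 carry a letter as sample code and the other arrays a number. With that type of code as a term, 9 members were called higher in double transgenic tumors. The share of all genes called was not taken in these runs. In Lck-Dlx5 and in double transgenic tumors, leaving out some other arrays raised the count. With fewer arrays any gene is harder to call. The cause of the falls and rises was not tested, and neither is read as particular to the members.

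Across the 4 tumor groups, 12 members were called higher in all (Psma3, Psma7, Psmb1, Psmb2, Psmb5, Psmd1, Psmd12, Psmd5, Psmd6, Psmd7, Psme3 and Psmg1), where 7% of all genes were. Another 10 were called higher in 3 groups, 4 in 2 and 6 in 1. The 13 members called higher in none were Psmb3, Psmb8, Psmb9, Psmb10, Psmb11, Psmc3, Psmd4, Psmd8, Psmd9, Psmd10, Psme4, Psmf1 and Psmg3, against 70.1% of all genes. The 4 comparisons share the same WT arrays. In 24 members all 13 tumor arrays lay above all 3 WT arrays, a pattern of 12.1% of all genes.

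**Figure D1:**
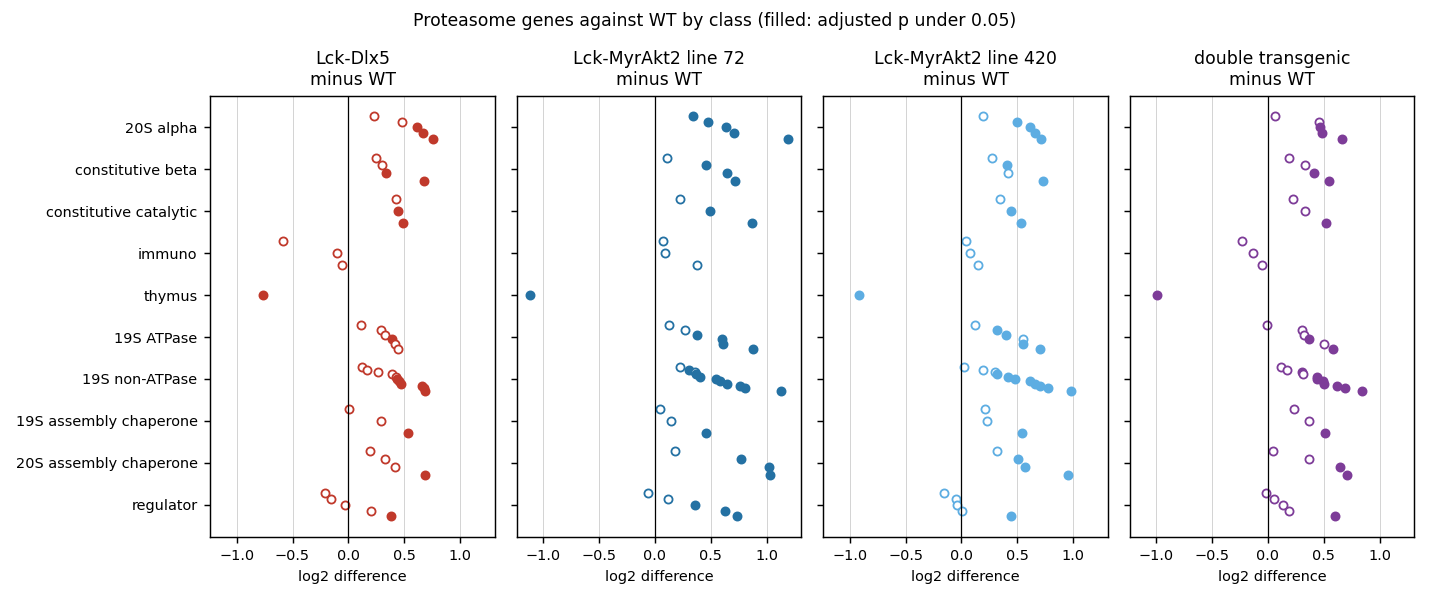
Log2 difference from WT (horizontal axis) of each tested proteasome gene, by class (rows) and tumor group (panels), with filled points for adjusted p under 0.05. Most classes lie right of 0, and the 3 immuno subunits lie between -0.58 and 0.37 without a call. Psmb11, the thymus subunit, passed the filter only through WT and lies at the left in all 4 panels.

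In the 20S core, 12 constitutive subunits were tested (5 alpha, 4 non-catalytic beta and the 3 catalytic ones). All 12 had a positive difference from WT in each of the 4 comparisons, and 7 were called higher in Lck-Dlx5, 10 in line 72, 8 in line 420 and 6 in double transgenic tumors. Of all genes, 13.7%, 20.7%, 15.1% and 14.9% were called higher in that order. Of the alpha subunits, which gate the barrel, Psma7 rose most. Psma7 read 9.98, 9.86 and 10.34 in Lck-Dlx5 tumors, 10.60, 10.62 and 10.28 in line 72, 10.38, 9.68 and 9.97 in line 420 and 9.92, 10.13, 9.93 and 9.89 in double transgenic tumors, against 9.30, 9.12 and 9.49 in WT. All 13 tumor arrays lay above the 3 WT arrays, with line 72 highest. The log2 differences were 0.75 ± 0.18, 1.19 ± 0.18, 0.71 ± 0.18 and 0.66 ± 0.16 (SE), with adjusted p = 0.00669, 0.000186, 0.00832 and 0.0112 from limma.

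Psma3 was called higher in all 4 groups, by 0.67, 0.63, 0.61 and 0.47, and Psma2 in the 3 groups with 1 transgene, by 0.62, 0.70 and 0.66. Psma1 was called in line 72, line 420 and double transgenic tumors, by 0.48, 0.49 and 0.48, and Psma6 in line 72 only, by 0.34. The WT and tumor arrays of Psma3 did not overlap. Among the structural beta subunits Psmb1 rose in all groups, by 0.67, 0.71, 0.73 and 0.54, as did Psmb2, by 0.34, 0.46, 0.41 and 0.41. Psmb4 was called in line 72 only, at 0.64, and Psmb3 was not called in any, with differences of 0.25, 0.10, 0.27 and 0.19.

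Psma5 and Psma8 did not pass the filter. Both features of Psma5 lay below the array median on all 16 arrays, with the brighter at 4.88 to 6.09, so its level was not measured above the dim range here. Psma8, the testis counterpart of Psma7, lay at 4.70 to 5.44. Psma4 is on the arrays only by features shared with AY074887, and it is no member for that reason.

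Among the catalytic subunits, Psmb5, which carries the chymotrypsin-like site, was called higher in all 4 tumor groups, while its immuno counterpart Psmb8 was called in none. Psmb5 read 11.59, 11.65 and 11.74 in Lck-Dlx5 tumors, 11.99, 12.13 and 12.13 in line 72, 11.74, 11.71 and 11.79 in line 420 and 11.60, 11.94, 11.67 and 11.71 in double transgenic tumors, against 11.17, 11.18 and 11.30 in WT. The tumor and WT arrays did not overlap, and the line 72 arrays lay above all other arrays. The log2 differences of Psmb5 were 0.45 ± 0.10, 0.87 ± 0.10, 0.53 ± 0.10 and 0.52 ± 0.09 (SE), with adjusted p = 0.00533, 2.87e-05, 0.00157 and 0.00191 from limma, and these calls held in every alternative run.

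Psmb8 read 9.89, 10.19 and 10.31 in Lck-Dlx5 tumors, 10.43, 10.83 and 10.41 in line 72, 10.58, 10.33 and 9.87 in line 420 and 9.80, 10.45, 9.95 and 10.01 in double transgenic tumors, against 10.11, 10.06 and 10.38 in WT. The line 72 arrays lay above the WT arrays and the other tumor groups overlapped with WT. The log2 differences were -0.06 ± 0.20, 0.37 ± 0.20, 0.08 ± 0.20 and -0.13 ± 0.19 (SE), with adjusted p = 0.858, 0.169, 0.806 and 0.665 from limma.

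Psmb6, with the caspase-like site, read 8.75, 9.12 and 9.38 in Lck-Dlx5 tumors, 9.23, 9.27 and 8.96 in line 72, 9.32, 8.99 and 8.72 in line 420 and 8.79, 9.10, 8.79 and 8.86 in double transgenic tumors, against 8.60, 8.60 and 8.79 in WT. It was called higher in line 72 only (0.49 ± 0.17, SE, adjusted p = 0.0394 from limma), and the other differences were 0.42, 0.35 and 0.22. Its immuno counterpart Psmb9 read 8.07, 8.97 and 8.86 in Lck-Dlx5 tumors, 8.95, 8.93 and 8.60 in line 72, 9.06, 8.79 and 8.79 in line 420 and 8.25, 9.32, 8.57 and 8.57 in double transgenic tumors, against 8.75, 8.80 and 8.65 in WT. Every tumor group of Psmb9 overlapped with WT, and replicate 1 of Lck-Dlx5 was the lowest array and replicate 2 of the double transgenic group the highest. The differences were -0.10 ± 0.25, 0.09 ± 0.25, 0.15 ± 0.25 and -0.06 ± 0.24 (SE), none called.

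Psmb7, with the trypsin-like site, read 9.59, 10.09 and 9.82 in Lck-Dlx5 tumors, 9.55, 9.73 and 9.41 in line 72, 9.81, 9.63 and 9.91 in line 420 and 9.62, 10.03, 9.49 and 9.54 in double transgenic tumors, against 9.29, 9.37 and 9.36 in WT. All tumor arrays lay above WT, and the calls were in Lck-Dlx5 (0.49 ± 0.16, SE, adjusted p = 0.0295 from limma) and line 420 (0.44 ± 0.16, adjusted p = 0.0445). Its counterpart Psmb10 read 8.96, 9.73 and 9.13 in Lck-Dlx5 tumors, 10.10, 9.96 and 9.72 in line 72, 9.84, 9.85 and 9.998 in line 420 and 8.73, 10.52, 9.42 and 9.83 in double transgenic tumors, against 9.99, 9.96 and 9.62 in WT. The double transgenic tumors spanned more than the other groups, and 2 of the 3 Lck-Dlx5 arrays lay below every WT array. The differences were -0.58 ± 0.33, 0.07 ± 0.33, 0.04 ± 0.33 and -0.23 ± 0.31 (SE), none called. For the 3 immuno subunits limma made 0 calls in the 4 comparisons with WT, also at an unadjusted p under 0.05.

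**Figure D2:**
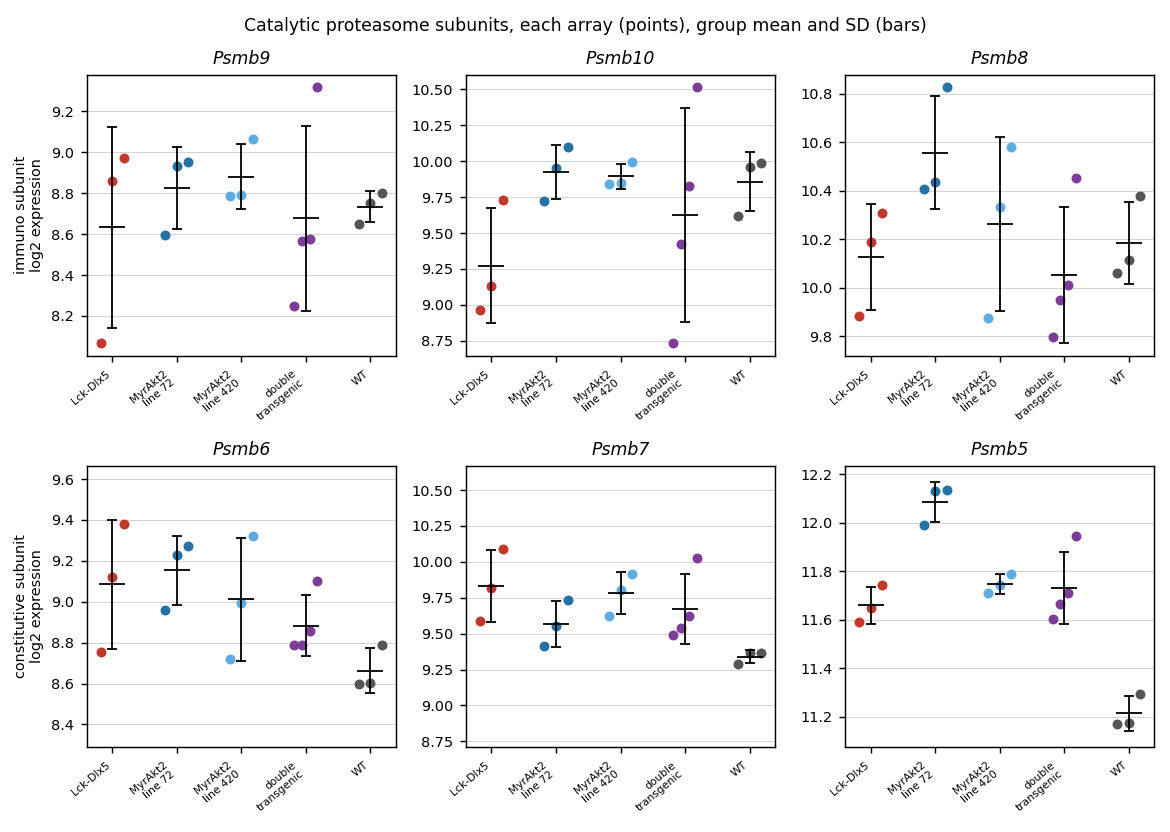
Log2 expression (vertical axis) of the immuno subunits (top row) and of the constitutive subunits whose place they take (bottom row) on each array, by group, with group mean and SD as bars. The vertical span is the same within a column. Psmb5 and Psmb7 lie above WT on all 13 tumor arrays, and Psmb8, Psmb9 and Psmb10 overlap with WT.

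To ask whether an immuno subunit and its constitutive counterpart changed unequally, their difference was taken within each array and the 13 tumor arrays, of 4 genotypes, were set against the 3 WT arrays (exact permutation test, two-sided, 560 arrangements, smallest possible p = 0.00179, 3 pairs adjusted by Benjamini-Hochberg). Psmb8 minus Psmb5 was -1.57 ± 0.22 in tumors and -1.03 ± 0.10 in WT (SD), a shift of -0.54 with adjusted p = 0.00536 in the exact test. All 13 tumor arrays lay below the 3 WT arrays, with shifts by group of -0.50 ± 0.15 in Lck-Dlx5, -0.50 ± 0.21 in line 72, -0.46 ± 0.39 in line 420 and -0.65 ± 0.13 in double transgenic tumors (SD). Psmb9 minus Psmb6 was -0.27 ± 0.24 in tumors and 0.07 ± 0.18 in WT (SD), a shift of -0.34 that missed the threshold after adjustment (exact p = 0.0357, adjusted p = 0.0536). Psmb10 minus Psmb7 was -0.03 ± 0.46 in tumors and 0.52 ± 0.23 in WT (SD), a shift of -0.55 with exact p = 0.0607, and by group it ran from -1.07 ± 0.17 in Lck-Dlx5 to -0.16 ± 0.17 in line 72.

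The Psmb8 and Psmb5 result passed with any single array left out. The Psmb9 and Psmb6 shift passed after adjustment without Lck-Dlx5 replicate 1 (-0.31), Lck-Dlx5 replicate 2 (-0.35), double transgenic replicate 2 (-0.38), line 420 replicate 3 (-0.37), line 72 replicate 1 (-0.34) or WT replicate 3 (-0.45). The Psmb10 and Psmb7 shift passed without double transgenic replicate 2 (-0.59), line 72 replicate 1 (-0.60) or WT replicate 3 (-0.68). With any other single array left out, both shifts missed the threshold. Without WT replicate 1 the adjusted p was 0.157 for Psmb9 and Psmb6 and 0.162 for Psmb10 and Psmb7 (exact test).

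**Figure D3:**
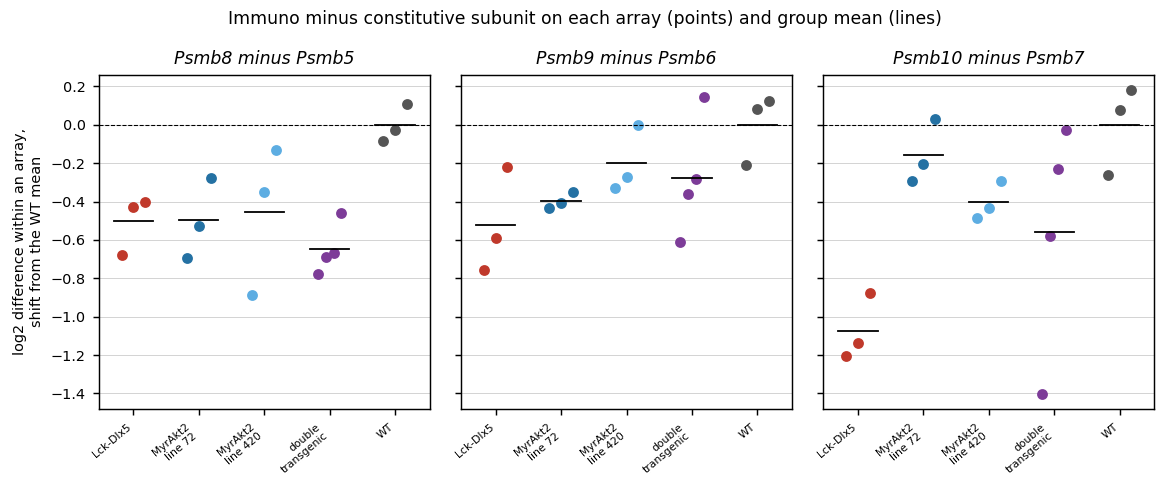
Within-array log2 difference of each immuno subunit minus its constitutive counterpart, shifted so that the WT mean is 0 (vertical axis, points are arrays, lines group means). For Psmb8 minus Psmb5 every tumor array lies below the WT arrays, and for Psmb10 minus Psmb7 the Lck-Dlx5 arrays lie lowest as a group at -1.07.

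Psmb11, the thymus subunit, was above the array median on 3 arrays, all WT. It read 5.91, 5.90 and 5.80 in Lck-Dlx5 tumors, 5.34, 5.43 and 5.77 in line 72, 5.56, 5.72 and 5.88 in line 420 and 5.63, 5.83, 5.59 and 5.52 in double transgenic tumors, against 6.69, 6.68 and 6.53 in WT, where array medians were 6.32 to 6.46. It passed the filter only through the WT arrays and so had to differ, and its differences of -0.76, -1.12, -0.91 and -0.99 are given as a description. Other genes of thymic epithelium were lower beside it. Of the 4 markers above the median on all 16 arrays (Krt8, Aire, Ccl25 and Ly75), 3 fell in Lck-Dlx5, 2 in line 72, 3 in line 420 and 4 in double transgenic tumors, and 0 rose. Of all genes, 15.9%, 15.6%, 15.4% and 8.93% were called lower in that order. The other 4 markers tested, Prss16 among them, passed with fewer arrays and are not counted. The summed level of 11 such markers is given only as a description, since it includes Prss16 and the others not counted. It was 9.98 to 10.22 in Lck-Dlx5, 10.24 to 10.38 in line 72 and 10.01 to 10.18 in line 420. In double transgenic tumors it was 9.93 to 10.41, against 10.97 to 11.25 in WT. Krt14, Dll4 and Enpep were below the median on all arrays. Prss16, a protease of the cortical epithelium, read 5.20 to 5.72 in Lck-Dlx5, 6.27 to 7.07 in line 72, 5.43 to 5.76 in line 420 and 5.09 to 6.07 in double transgenic tumors, against 8.52 to 9.37 in WT. Their part in the Psmb11 difference was not tested, and in bulk samples fewer cells of a type and less RNA per cell cannot be told apart.

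Among the regulators, the PA28 pair was higher in line 72 and in no other tumor group. Psme1 read 9.50, 9.68 and 9.57 in Lck-Dlx5 tumors, 10.65, 10.41 and 10.52 in line 72, 9.98, 9.54 and 9.72 in line 420 and 9.58, 9.93, 9.95 and 9.93 in double transgenic tumors, against 9.84, 9.70 and 9.82 in WT. The 3 line 72 arrays lay above all other arrays. The differences from WT were -0.21 ± 0.13, 0.74 ± 0.13, -0.04 ± 0.13 and 0.06 ± 0.12 (SE), with adjusted p = 0.000724 from limma in line 72, a 1.67-fold higher level, and no call elsewhere.

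Psme2 read 7.83, 7.75 and 7.74 in Lck-Dlx5 tumors, 8.20, 8.25 and 8.41 in line 72, 7.93, 8.0 and 7.85 in line 420 and 7.89, 8.21, 8.04 and 8.08 in double transgenic tumors, against 7.82, 8.05 and 7.91 in WT. Line 72 lay above WT and overlapped only with double transgenic replicate 2, and its difference from WT was 0.36 ± 0.10 (SE, adjusted p = 0.0148 from limma), with -0.15, 0.00 and 0.13 in the other groups. Psme3 read 9.92, 9.86 and 9.82 in Lck-Dlx5 tumors, 10.01, 10.08 and 10.26 in line 72, 9.63, 10.01 and 10.15 in line 420 and 10.16, 10.18, 9.91 and 10.11 in double transgenic tumors, against 9.60, 9.39 and 9.47 in WT. All 13 tumor arrays lay above WT, and Psme3 was called in all 4 groups, by 0.38, 0.63, 0.44 and 0.60. Psme4 differed by -0.03, -0.06, -0.15 and -0.02 and Psmf1 by 0.21, 0.12, -0.05 and 0.19, and neither was called.

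**Figure D4:**
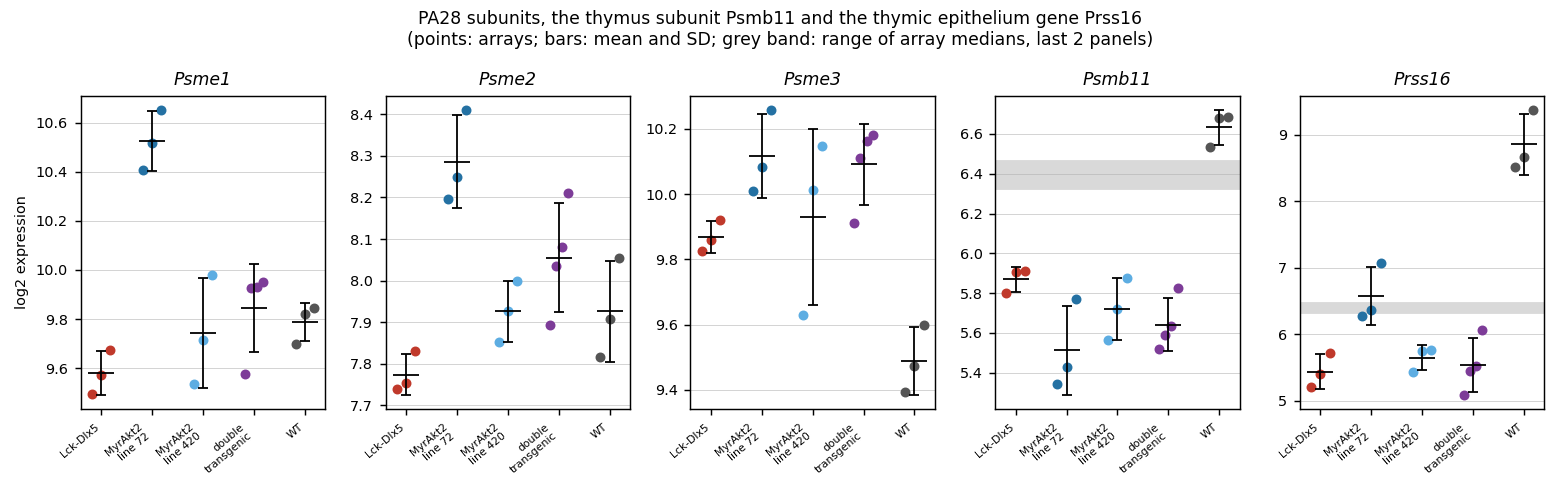
Log2 expression (vertical axes, each its own scale) of Psme1, Psme2, Psme3, Psmb11 and the thymic epithelium gene Prss16 on each array by group, with mean and SD. Grey bands give the range of array medians, 6.32 to 6.46, and Psmb11 lies above the band only in WT.

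The tumor groups were compared directly for the difference between line 72 and the others. Lck-Dlx5 against line 72 gave 0 members higher and 4 lower, where 6.94% of all genes were higher and 12.8% lower. The lower count does not exceed that share, so it is not read as particular to the members. The 4 were Psme1 (-0.95 ± 0.13, adjusted p = 0.000316 from limma), Psmg2 (-0.61 ± 0.15, adjusted p = 0.0121), Psme2 (-0.51 ± 0.10, adjusted p = 0.00403) and Psmb5 (-0.42 ± 0.10, adjusted p = 0.00968, all SE). At an unadjusted p under 0.05 there were 1 higher and 9 lower. The lower count was 7 without Lck-Dlx5 replicate 3, and the higher count was 1 without line 72 replicate 3 and 1 with the type of sample code as a term. Psmg2 was not called without line 72 replicate 3 (-0.55) or with the mean of its 2 features (-0.26), of which the dimmer lay below the median on all arrays. Psmb5 was not called with only the arrays compared (adjusted p = 0.0538 from limma).

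Line 420 against line 72, tumors of 1 transgene and 1 age, gave 0 higher and 3 lower members, where 3.73% of all genes were higher and 7.45% lower. These were Psme1 (-0.78 ± 0.13, adjusted p = 0.00164 from limma), Psme2 (-0.36 ± 0.10, adjusted p = 0.0382) and Psmb5 (-0.34 ± 0.10, adjusted p = 0.0429, all SE), and at an unadjusted p under 0.05 there were 0 higher and 5 lower. The count of 3 lower members does not exceed the share of all genes called lower either. Psme1 kept its call in all alternatives, while the count was 1 without any one of line 420 replicates 2 and 3 and line 72 replicates 1, 2 and 3, and 2 without line 420 replicate 1. Psme2 lost its call in 10 of 14 alternatives and Psmb5 in 9.

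Cell markers also differed between tumor groups and WT, in line 72 and elsewhere. Of the 10 macrophage and dendritic markers above the median on all 16 arrays, 1 rose and 2 fell against WT in Lck-Dlx5, 6 rose in line 72, 4 in line 420 and 1 in double transgenic tumors. Of all genes, 13.7%, 20.7%, 15.1% and 14.9% rose in that order, and 15.9% fell in Lck-Dlx5. Line 420 against line 72, where 3.73% of all genes were higher and 7.45% lower, called 0 of these 10 markers either way. The summed level of the 13 on the arrays was 11.85 to 12.57 in Lck-Dlx5, 12.71 to 13.50 in line 72, 12.57 to 13.27 in line 420 and 12.28 to 13.09 in double transgenic tumors, against 12.19 to 12.47 in WT. The 7 neutrophil markers exceeded the median on 4 to 6 arrays each and so passed the filter only through the groups where they are high. Their summed level is given as a description: 8.38 to 8.51 in Lck-Dlx5, 9.62 to 11.50 in line 72, 8.46 to 8.61 in line 420 and 8.27 to 8.60 in double transgenic tumors, against 10.31 to 10.88 in WT. No B cell marker exceeded the median on all arrays, and the summed level of 7 was 8.75 to 8.95 in Lck-Dlx5, 8.66 to 8.82 in line 72, 9.22 to 10.04 in line 420 and 8.78 to 9.99 in double transgenic tumors, against 9.91 to 10.35 in WT. Of 5 fibroblast and endothelial markers above the median on all arrays, Col1a1 and Col3a1 rose against WT in line 72 and in line 420, and Pecam1 fell in line 420. Line 420 against line 72 called 0 of these 5. The summed level of all 8 was 10.75 to 11.72 in Lck-Dlx5, 10.85 to 11.54 in line 72, 10.91 to 10.96 in line 420 and 10.44 to 11.30 in double transgenic tumors, against 10.99 to 11.08 in WT. Their part in the Psme1, Psme2 and Psmb5 differences was not tested.

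Double transgenic tumors against Lck-Dlx5 gave 0 members higher and 0 lower with limma, where 1.38% of all genes were higher and 0.487% lower, and at an unadjusted p under 0.05 there were 3 higher and 0 lower. With the Dlx5 founder line as a block, a fit added after seeing the data, there were again 0 and 0, with 1 higher and 3 lower unadjusted. Against the mean of both Lck-MyrAkt2 lines they also gave 0 and 0, where 5.47% of all genes were higher and 3.22% lower, with 0 higher and 3 lower unadjusted. Without double transgenic replicate 2 the comparison with the Lck-MyrAkt2 lines called 2 members lower, Psmb5 (-0.26) and Psmd3 (-0.38). With the arrays set to a common median, higher genes made 85.4% of all genes called against Lck-Dlx5 (73.9% as deposited) and 74.2% against Lck-MyrAkt2 (63% as deposited).

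In the 19S cap, 17 ATPase and non-ATPase subunits were tested, and 7 were called higher in Lck-Dlx5, 13 in line 72, 12 in line 420 and 10 in double transgenic tumors, with 0 lower in each. The shares of all genes called were 13.7%, 20.7%, 15.1% and 14.9% higher and 15.9%, 15.6%, 15.4% and 8.93% lower. Psmd7, the partner of the deubiquitinase Psmd14 in the lid, had the largest rise of the 17 in line 72, line 420 and double transgenic tumors (in Lck-Dlx5 it was Psmd1). Psmd7 read 10.15, 9.96 and 10.63 in Lck-Dlx5 tumors, 10.63, 10.90 and 10.56 in line 72, 10.69, 10.64 and 10.32 in line 420 and 10.57, 10.66, 10.10 and 10.33 in double transgenic tumors, against 9.60, 9.34 and 9.77 in WT. No tumor array overlapped with WT, and the differences were 0.68 ± 0.19, 1.13 ± 0.19, 0.98 ± 0.19 and 0.84 ± 0.18 (SE), with adjusted p = 0.0175, 0.000526, 0.00201 and 0.00474 from limma.

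Psmd1, a scaffold subunit of the base, read 10.20, 10.53 and 10.70 in Lck-Dlx5 tumors, 10.57, 10.74 and 10.35 in line 72, 10.54, 10.60 and 10.57 in line 420 and 10.43, 10.68, 10.20 and 10.33 in double transgenic tumors, against 9.77, 9.79 and 9.82 in WT. The 3 WT arrays were within 0.05 log2 units of each other and below every tumor array. The differences were 0.68, 0.76, 0.78 and 0.62, called in all 4 groups and in every alternative run. Psmd6, of the lid, differed by 0.66, 0.64, 0.70 and 0.69 and also kept its call throughout. Psmd14 rose by 0.46 in Lck-Dlx5, 0.31 in line 72 and 0.44 in double transgenic tumors and was not called in line 420 (0.30). Psmd12 was called higher in all 4 groups (0.43, 0.55, 0.48 and 0.44), and Psmd3 in line 72, line 420 and double transgenic tumors (0.81, 0.66 and 0.50, with 0.43 in Lck-Dlx5). The ubiquitin receptor Psmd4 was not called in any group (0.17, 0.36, 0.19 and 0.17), nor was Psmd8 (0.12, 0.22, 0.02 and 0.11).

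Of the 6 ATPases, Psmc2 was called in line 72, line 420 and double transgenic tumors (0.88, 0.70 and 0.58, with 0.45 in Lck-Dlx5), Psmc5 in line 72 and line 420 (0.61 and 0.55) and Psmc1 in line 72 (0.60). Psmc4 was called in line 72 and line 420 (0.38 and 0.40). Psmc6 was called in Lck-Dlx5, line 420 and double transgenic tumors (0.39, 0.32 and 0.37). Psmc3 was called in none, with differences of 0.11, 0.13, 0.12 and -0.01.

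Among the chaperones, Psmg1, which with Psmg2 helps the alpha ring to form, read 8.03, 8.39 and 8.75 in Lck-Dlx5 tumors, 8.80, 8.72 and 8.65 in line 72, 8.80, 8.42 and 8.74 in line 420 and 8.40, 8.88, 7.98 and 8.39 in double transgenic tumors, against 7.67, 7.60 and 7.83 in WT. All tumor arrays lay above WT, and the differences were 0.69, 1.02, 0.95 and 0.71, called in all 4 groups. Psmg2 read 9.05, 9.16 and 9.40 in Lck-Dlx5 tumors, 9.73, 9.77 and 9.94 in line 72, 9.37, 9.26 and 9.46 in line 420 and 9.49, 9.80, 9.11 and 9.33 in double transgenic tumors, against 8.73, 8.76 and 8.88 in WT. Its differences were 0.41 (not called), 1.03, 0.57 and 0.64. Psmg4 was called in line 72 and line 420 (0.77 and 0.50) and Psmg3 in none. Of the 19S chaperones Psmd5 rose in all groups (0.53, 0.46, 0.54 and 0.51), and Psmd9 and Psmd10 were called in none.

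**Figure D5:**
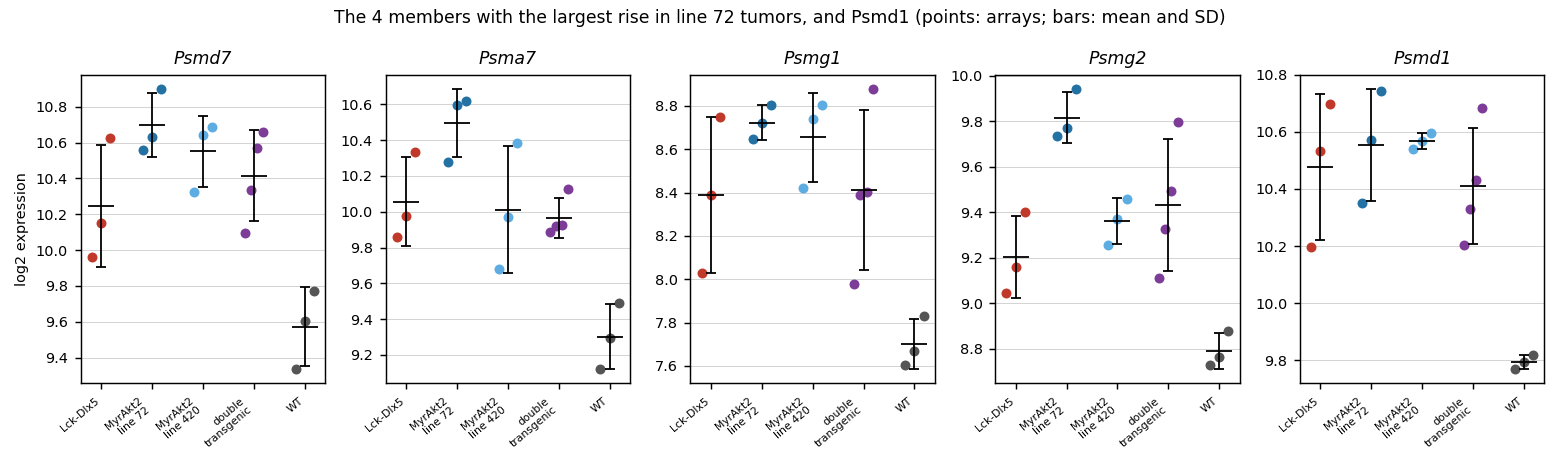
Log2 expression (vertical axes, each its own scale) of Psmd7, Psma7, Psmg1, Psmg2 and Psmd1 on each array by group, with mean and SD. All tumor arrays lie above the 3 WT arrays in each panel.

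The members also moved together within a group. In double transgenic replicate 2, 43 of the 45 members had the highest value of the 4 arrays, with a median deviation from the group mean of 0.27, against 0.036 over all genes. In line 72 replicate 2, 34 members were the highest of their group, with a median deviation of 0.16 against 0.025 over all genes. In line 72 replicate 3, 32 were the lowest, with a median deviation of -0.15 against -0.024. In Lck-Dlx5 replicate 1, 35 were the lowest, with a median deviation of -0.18 against -0.034 over all genes. The share of all genes that were highest or lowest on an array was not taken. The median SD within groups was 0.178 for members and 0.195 for all genes. Psmb10 (0.401), Psmb9 (0.322), Psmc1 (0.281) and Psmb8 (0.260) had the widest spread of the members and Psmb5 (0.0907) the narrowest.

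Genes that work with the proteasome but fall outside the symbol rule were taken from a list of 17, of which 14 were tested. Of these, 5 were higher and 1 lower than WT in Lck-Dlx5, 8 and 2 in line 72, 7 and 2 in line 420 and 6 and 1 in double transgenic tumors. Of all genes, 13.7%, 20.7%, 15.1% and 14.9% were higher in that order, and 15.9%, 15.6%, 15.4% and 8.93% lower. The lower counts do not exceed those shares. Usp14 and Uchl5, deubiquitinases that bind the 19S cap, rose in all 4 groups (Usp14 by 0.81, 1.02, 0.84 and 0.76, Uchl5 by 0.72, 0.68, 0.87 and 0.76), as did Rad23b, a shuttle for ubiquitinated proteins (0.47, 0.44, 0.66 and 0.48). Akirin2, which brings proteasomes into the nucleus, fell in all 4 (-0.42, -0.53, -0.53 and -0.45). Nfe2l1, a factor known to drive proteasome genes, was not called in any (-0.27, 0.08, -0.03 and 0.13), and Ngly1, the enzyme that processes it, fell in line 72 (-0.79) and line 420 (-0.53).

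Genes of class I peptide loading, the pathway the immunoproteasome serves, did not move as 1 group. Of 10 tested, 2 were higher and 4 lower in Lck-Dlx5, 4 and 1 in line 72, 4 and 1 in line 420 and 3 and 2 in double transgenic tumors. The shares of all genes were 13.7%, 20.7%, 15.1% and 14.9% higher and 15.9%, 15.6%, 15.4% and 8.93% lower in that order. A count of 1 or 2 among 10 is close to such shares. The chaperones Canx and Pdia3 rose in all 4 groups (Canx by 0.48, 0.64, 0.77 and 0.61). Tap1, the peptide transporter subunit next to Psmb9, fell in Lck-Dlx5 (-0.70), line 420 (-0.48) and double transgenic tumors (-0.77) and was not called in line 72 (-0.34). H2-K1, a class I heavy chain, read 8.34, 8.72 and 8.55 in Lck-Dlx5 tumors, 10.99, 10.91 and 11.05 in line 72, 10.23, 9.74 and 9.85 in line 420 and 8.56, 9.75, 9.96 and 10.74 in double transgenic tumors, against 10.84, 10.61 and 10.91 in WT. Lck-Dlx5 lay below WT without overlap (-2.25 ± 0.36, SE, adjusted p = 0.000886 from limma). Line 72 overlapped with WT (0.19, not called), line 420 lay below it (-0.85, not called), and double transgenic tumors were called lower (-1.03) although replicate 4 overlapped with WT.

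Of 11 tested genes of interferon signalling to the immuno subunits, 8 were lower in Lck-Dlx5, 6 in line 72, 7 in line 420 and 6 in double transgenic tumors, and 0 were higher (0 also at an unadjusted p under 0.05, limma). Nlrc5 passed the filter with 9 arrays, and of the 10 genes above the median on all arrays 7, 5, 6 and 5 were lower in these groups in that order. Of all genes, 15.9%, 15.6%, 15.4% and 8.93% were lower and 13.7%, 20.7%, 15.1% and 14.9% higher. Nlrc5, the transactivator of class I genes, differed by -2.30, -0.86, -1.53 and -1.55, and Socs1, Irf2, Jak2 and Stat2 were called lower in all 4 groups. Irf1 was called in none (-0.43, -0.14, -0.08 and -0.28). Of 5 proliferation markers tested, 5 rose in Lck-Dlx5 and 2, Bub1b and Mcm3, in each other tumor group. Summed levels were 13.95 to 14.12 in Lck-Dlx5, 13.61 to 13.77 in line 72, 13.77 to 13.88 in line 420 and 13.55 to 14.02 in double transgenic tumors, against 13.43 to 13.61 in WT. The part of these markers in the proteasome differences was not tested.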

How the data were processed

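Total RNA of primary thymic tumors and WT thymic T cells was extracted with Trizol and hybridized to the Mouse Gene 2.0 ST array of Affymetrix. Each deposited value is the log2 level of a feature, which the authors obtained from Expression Console (Affymetrix). Its version, summarization and normalization are not given in the sources used here. All 16 columns were used unchanged. Of 41345 features, GEO's platform annotation names 23521 with 1 gene, 1820 with several and 16004 with none. The brightest feature per gene was kept.

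Group means over the 16 arrays were estimated in 1 linear model by limma 3.58.1 (lmFit, eBayes) in R 4.3.3, with Benjamini-Hochberg adjustment within each of 8 comparisons. The steps were tested on simulated data. Replicates are separate tumors or littermates by their labels, and 3 or 4 arrays per group limit the precision. The members and lists were chosen with earlier results of these data known. Named genes are all catalytic, immuno, thymus and regulator subunits, members failing the filter, per comparison the 3 called members with the largest rise and fall in each class, and up to 4 genes of each other list. Other named genes, such as Psmd14, Psmd12, Akirin2 and Irf1, were chosen after their values were seen. Figures used matplotlib 3.10.9 in Python 3.11.15. Alternatives were 2 other scalings, 2 other filters, the mean of features, trend and robust eBayes, only the arrays compared, the sample code as a term, leaving out each array and, added after seeing the data, the Dlx5 founder line as a block.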

Additional observations from a re-analysis of the deposited data

Results flagged for a closer look

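In the 4 double transgenic tumors, 3 members had 1 array far from the others by Dixon's ratio (the gap to the nearest array over the whole range, above its critical value for 4 arrays): Psma7 in replicate 2 (0.834, high), Psmd9 in replicate 2 (0.930, high) and Psme1 in replicate 1 (0.929, low). Chance flags about 1 in 20 groups, and 47 members were looked at.

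The change from WT differed between tumor groups, by the test of the difference itself, for Psme1 (-0.95), Psmg2 (-0.61), Psme2 (-0.51) and Psmb5 (-0.42) in Lck-Dlx5 against line 72, and for Psme1 (-0.78), Psme2 (-0.36) and Psmb5 (-0.34) in line 420 against line 72. All were lower than in line 72. In neither comparison did the count of lower members exceed the share of all genes called lower.

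Features outside the main measurement gave mixed readings, and the flag listed only those with all 13 tumor arrays above WT. A feature shared by Psma4 and AY074887 read 9.68 to 11.08 in tumors and 9.12 to 9.22 in WT, a difference of means of 1.02 with all 13 tumor arrays above WT. Which of the 2 genes it reports cannot be told apart. The dimmer feature of Psmc2 read 6.48 to 7.41 in tumors and 6.07 to 6.38 in WT (0.72, all 13 above), the direction of its brighter feature. Others did not rise in all tumors. A feature shared by Psme2, 9930111J21Rik1 and 9930111J21Rik2 read 7.64 to 8.54 in tumors and 8.55 to 9.14 in WT (-0.72), lower on all 13 tumor arrays. A feature shared by Armc9 and Psmd1 read 7.50 to 7.76 in tumors and 7.70 to 7.78 in WT (-0.083), without the rise of Psmd1's own feature. Which gene these features report cannot be told apart.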

How the results depend on the processing

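No called member difference changed sign under the alternatives run. Counts of called members stayed within 1.5 times of the main count except as follows. With the filter at the 75th percentile, which drops Psmb11, 0 members were lower than WT in each of the 4 comparisons. With the type of sample code as a term, 9 members were higher in double transgenic tumors than in WT, and 1 was higher in Lck-Dlx5 than in line 72. In line 420 against line 72, 1 was lower with no filter on dim features and 1 with only the arrays compared. Under quantile normalization the Psmb9 minus Psmb6 shift of -0.35 passed (adjusted p = 0.0429, exact permutation test).

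Leaving out 1 array gave 7 to 22 members higher than WT in Lck-Dlx5, 17 to 27 in line 72, 13 to 21 in line 420 and 8 to 22 in double transgenic tumors, with 1 lower each. The shares of all genes called were not taken for these runs. Lck-Dlx5 against line 72 gave 0 to 1 higher and 4 to 7 lower, line 420 against line 72 gave 1 to 2 lower, and double transgenic tumors against the mean of both Lck-MyrAkt2 lines gave 0 to 2 lower. The pair shifts ran from -0.58 to -0.48 for Psmb8 minus Psmb5, from -0.45 to -0.28 for Psmb9 minus Psmb6 and from -0.68 to -0.46 for Psmb10 minus Psmb7. Calls that were tested and held in every alternative numbered 6 of 18 in Lck-Dlx5 against WT, 15 of 31 in line 72, 10 of 26 in line 420 and 6 of 21 in double transgenic tumors. The totals of 18, 31, 26 and 21 include Psmb11, which passed the filter only through WT and so had to differ. It is not among the calls that held, since the 75th percentile filter leaves it untested. The cause of these moves was not tested. The arrays give log2 summaries without detection values, so only the array median bounds the dim range.

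No paired analysis was possible because the labels give no replicate number shared across groups. Lck-Dlx5 and double transgenic tumors do share Dlx5 founder lines 47 and 86, and with the line as a block, added after seeing the data, the calls between them numbered 0 among members, as without it, and 373 over all genes, against 241 without the block.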
